A study of Mus musculus with 15 samples.

Results

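The genes described here are 8 members of the trypsin-like serine protease system of epithelial cells, out of 18193 genes measured in the series: the protease genes Prss12, St14, Prss8, Hpn, Tmprss2 and Tmprss4, and the Kunitz-type inhibitor genes Spint1 and Spint2. They were chosen by name, with Prss12 placed first because its values had already been seen to differ between the genotype groups, and all 8 were found through the platform's gene symbols, on 12 probe sets. Expression was measured on Affymetrix mouse arrays in 15 mouse cell lines, 12 with the genotype label AKP and 3 with the label AP, with a single array for each line. What the genotype letters stand for and the tissue of origin are not stated, and all lines grew untreated in one serum-supplemented medium. AKP 6 carries the label adenoma and the other 14 lines the label tumour, while 10 lines are marked female and 5 male. Each line is 1 sample. A pair number is given for 7 AKP lines and 1 AP line and was not used here. Whether lines shared an animal was not settled, so errors here measure the spread between lines, which may not all be independent.

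Trypsin-like serine proteases cut proteins after a basic residue and are made as inactive zymogens that need a cut themselves. On epithelial surfaces the membrane-anchored matriptase (the product of St14) and the membrane-tethered prostasin (the product of Prss8) activate one another, hepsin (Hpn) and the TMPRSS enzymes belong to the same transmembrane family, and the inhibitors HAI-1 (Spint1) and HAI-2 (Spint2) hold them in check with Kunitz domains. Neurotrypsin, the product of Prss12, differs from the other proteases of the set in that it is secreted rather than anchored; it is best known from neurons, where it cuts the proteoglycan agrin.

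All values are log2 expression as deposited. Array medians ran from 3.91 to 4.17, and between 35.9% and 39.5% of probe sets, depending on the array, had values under 3, called the floor here. The files give no detection calls, so a value near or below 3 cannot be told from background. Levels of different genes are not set against each other, since each probe set has its own response. In RNA of a whole culture, fewer cells of a type and less RNA per cell cannot be told apart. Lines AP 1 and AKP 1 stood apart: the median of 13 epithelial marker genes was 2.90 in AKP 1 and 2.58 in AP 1, and the median of 12 fibroblast and smooth muscle marker genes was 12.51 in AKP 1 and 13.91 in AP 1.

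Promoter windows of the members that carry the results are shown because Prss12 separates the genotype groups, Spint1 and Tmprss2 reach their highest AKP values in the same lines, and Spint2 is low in AP 1 and AKP 1. RefSeq's promoter table for GRCm38.p6 matched 5 of the 8 members, and each window runs from 250 bases before to 50 bases after the start site. Capitals mark the letters ACCGGT, a core of sites of grainyhead-like epithelial factors that reads the same on both strands, CAGGTG or its other strand CACCTG, a box bound by the repressors Zeb1 and Snail, and TGANTCA, the AP-1 site, which is its own complement.
Prss12, chr3:123446663-123446962, plus strand: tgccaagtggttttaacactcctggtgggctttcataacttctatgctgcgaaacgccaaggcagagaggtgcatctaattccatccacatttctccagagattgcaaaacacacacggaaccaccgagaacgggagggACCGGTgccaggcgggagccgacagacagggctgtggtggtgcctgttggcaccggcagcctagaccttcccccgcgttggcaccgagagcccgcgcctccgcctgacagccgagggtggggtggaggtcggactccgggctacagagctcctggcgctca
Spint1, chr2:119237110-119237409, plus strand: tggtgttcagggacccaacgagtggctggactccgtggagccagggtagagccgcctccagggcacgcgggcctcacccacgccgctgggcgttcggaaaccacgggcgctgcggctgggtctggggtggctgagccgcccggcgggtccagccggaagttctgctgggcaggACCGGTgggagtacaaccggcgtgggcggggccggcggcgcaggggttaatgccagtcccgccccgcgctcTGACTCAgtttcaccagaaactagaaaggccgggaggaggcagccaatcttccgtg
Spint2, chr7:29281928-29282227, minus strand: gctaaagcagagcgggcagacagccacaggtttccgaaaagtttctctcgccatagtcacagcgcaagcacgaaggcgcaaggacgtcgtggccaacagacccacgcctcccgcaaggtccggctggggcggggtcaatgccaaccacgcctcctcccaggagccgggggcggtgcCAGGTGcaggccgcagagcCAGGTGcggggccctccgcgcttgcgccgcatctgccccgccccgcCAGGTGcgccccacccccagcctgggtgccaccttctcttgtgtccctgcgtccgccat
Tmprss2, chr16:97611146-97611445, minus strand: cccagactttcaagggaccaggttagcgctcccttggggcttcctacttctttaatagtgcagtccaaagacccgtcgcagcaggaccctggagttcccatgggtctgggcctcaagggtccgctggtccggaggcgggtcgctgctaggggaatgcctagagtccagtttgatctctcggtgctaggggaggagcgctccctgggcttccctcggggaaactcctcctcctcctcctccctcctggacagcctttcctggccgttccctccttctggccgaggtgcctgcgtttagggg
The Prss12 and Spint1 windows each held 1 copy of ACCGGT, beginning at base 140 and base 174 of the window, and 2.33% of the 32851 windows in the table held it. Spint2 had 3 copies of CAGGTG, and 20.2% of all windows had at least 1 copy of CAGGTG or CACCTG. Hpn, the other matched member, is not shown, and a window of it also held 3 copies of this box. Spint1 had 1 TGANTCA beginning at base 245, and 7.81% of all windows had one. The Tmprss2 window held none of the 3 motifs. Guanine and cytosine made up 61.3% of the Prss12 window, 69.7% of the Spint1 window, 69.3% of the Spint2 window and 62.3% of the Tmprss2 window, and these held 19, 28, 26 and 13 CG pairs, against a median of 7 over all windows. These matches are letters only and say nothing of binding.

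Prss12 was the member that separated the genotype groups. It ran from 8.18 in AKP 8 through a median of 11.61 to 13.89 in AKP 4 among the 12 AKP lines, against 5.20 in AP 1, 7.80 in AP 2 and 6.80 in AP 3. Every AKP line lay above every AP line, although the lowest AKP line exceeded the highest AP line by only 0.38. The mean was 11.58 ± 1.95 in AKP lines (SD, n = 12) and 6.60 ± 1.31 in AP lines (SD, n = 3), a difference of 4.98 ± 1.16 on the log2 scale (SE), or 31.5-fold. Because these values helped to choose the gene, they are given without a test. Among the 8 members, 1 had groups that did not overlap, and that was Prss12; over all genes 2.13% did, and in 0.951% every AKP line lay above every AP line. Limma called 1.9% of all genes at an adjusted p of 0.05. The share called higher in AKP was 0.792%, the share called lower was 1.1%, and 1.29% of single probe sets were called.

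**Figure D1:**
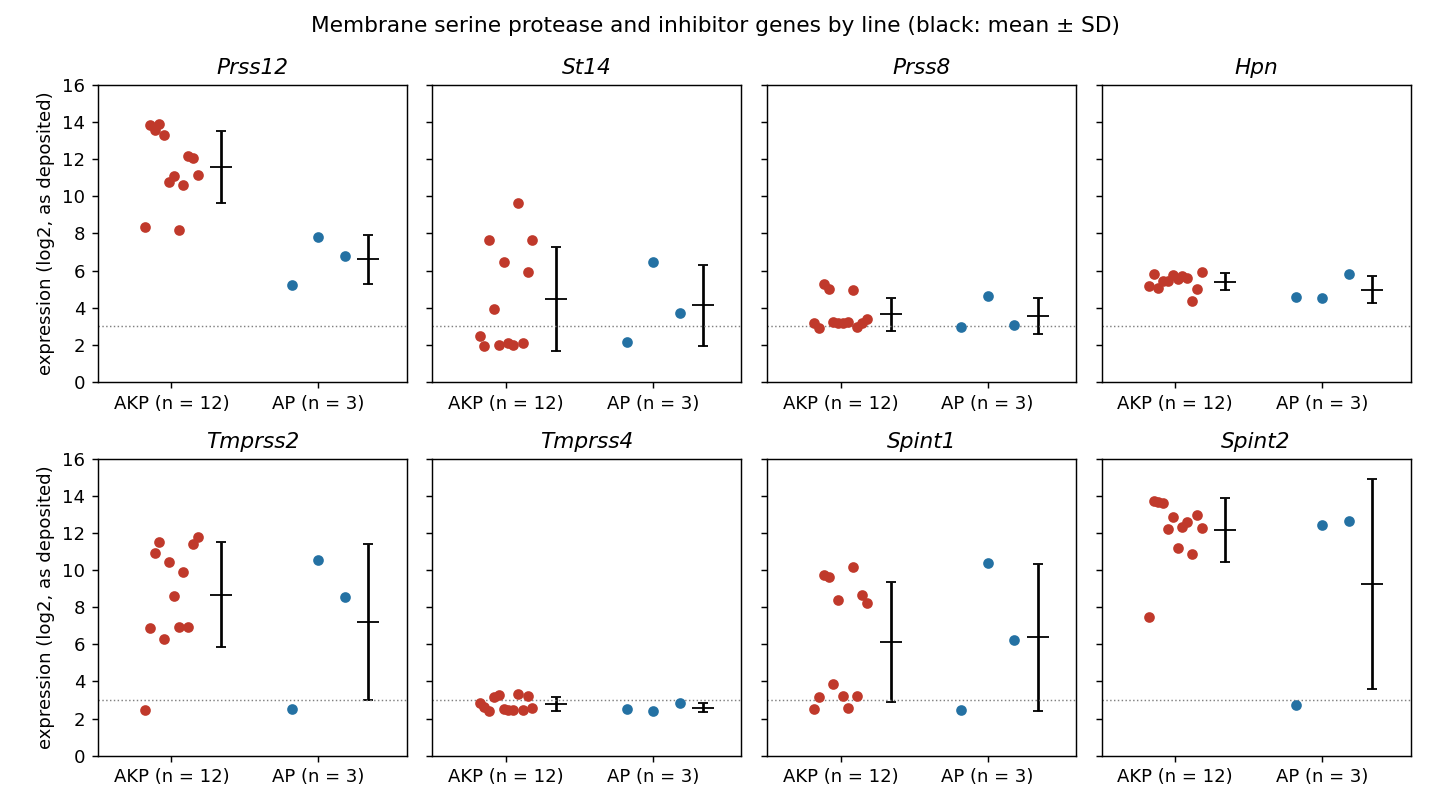
Expression of the 8 members (y axis, log2 as deposited) in AKP lines (red, 12 points) and AP lines (blue, 3 points), with each group's mean and SD in black and a dotted line at 3, the top of the floor. Prss12 is the panel without overlap between the groups, while St14, Tmprss2, Spint1 and Spint2 spread widely inside the groups.

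Within the AKP group, AKP 4, AKP 2, AKP 3 and AKP 5 were highest in Prss12, at 13.89, 13.85, 13.56 and 13.31. AKP 10 and AKP 11 followed at 12.15 and 12.07, and AKP 12, AKP 7, AKP 6 and AKP 9 at 11.15, 11.12, 10.77 and 10.61. A step of 2.27 then led down to AKP 1 at 8.34 and AKP 8 at 8.18. The adenoma-labelled line AKP 6 thus stood among the tumour lines. With 1 array for each line, neighbours in this order cannot be separated. The authors' deposited table of their own comparison lists 501 entries, of which Prss12 is the only member, with means of 12.25 in AKP and 6.60 in AP. Leaving out AKP 1 and AKP 8 was tried once the values were known, because the mean of the other 10 AKP lines then equals the deposited one. The difference from AP was 5.64 in that setting.

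The lines low in Prss12 were also those with the higher median level of fibroblast and smooth muscle markers. The median of the 12 measured markers was 12.51 in AKP 1 and 8.75 in AKP 8 and ran from 2.91 to 4.89 in the other AKP lines, against 13.91, 7.21 and 6.98 in AP 1, AP 2 and AP 3. Of these markers, 2 fell in AKP lines by limma, the collagen gene Col1a1 and Lum, while 1.1% of all genes were called lower. Col1a1 lay at 10.05 in AKP 1 and between 3.78 and 4.43 in the other AKP lines, against 7.59 to 11.90 in AP lines. Lum averaged 2.47 in AKP lines and 3.01 in AP lines, near the floor. AKP 8 was high in only part of the list. It had 4.08 in Col1a1, 2.98 in Col1a2 and 2.39 in Col6a3, but 9.55 in Thy1, 10.98 in Pdgfrb and 12.35 in Acta2. Other lines were high in single markers. Dcn lay at 14.65 in AKP 7 and 13.55 in AKP 3, against 7.68 in AKP 1, and Pdgfra at 11.60 in AKP 2, against 7.95 in AKP 8. Over the 12 AKP lines Pearson's r between Prss12 and the marker median was -0.750 (permutation adjusted p = 0.0232 over 24 relations), while Spearman's rho was -0.343 (permutation adjusted p = 0.474). Without AKP 1 and AKP 8, the lines farthest from the median on the marker axis, r was -0.0530, so the relation rests on them. Leaving out AKP 1, AKP 3 or AKP 8 alone ended the call, with r of -0.671, -0.742 and -0.680 (permutation adjusted p = 0.157, 0.0542 and 0.0955). The part of these markers in the genotype difference was not tested.

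Other lists were set against Prss12 in the same way. With the median of 14 MAPK output genes, which are induced by the growth signalling pathway downstream of receptor kinases, r over the AKP lines was 0.623 (permutation adjusted p = 0.0724) and rho 0.497 (permutation adjusted p = 0.248), with r of 0.440 without the 2 lines farthest from the median. That list lay between 10.75 and 11.93 in AKP lines, all above the 3 AP lines at 10.10, 9.92 and 9.88. By limma 7 of its 14 genes rose in AKP lines, while 0.792% of all genes did. The list was chosen with earlier results of these data known, so nothing is read from that count. With 13 epithelial markers r was 0.302 and rho 0.154 (permutation adjusted p = 0.469 and 0.726), and r was 0.0452 without the 2 farthest lines. Of 8 neuronal markers, limma called 0 between the genotypes (1 at an unadjusted p under 0.05), and their median lay between 3.26 and 4.73 in AKP lines and between 3.04 and 3.38 in AP lines. That median hides single genes. Stmn2 lay between 2.60 and 10.87 in AKP lines and between 2.54 and 2.57 in AP lines. Map2 lay between 3.37 and 10.35 in AKP lines and between 2.97 and 3.41 in AP lines. Tubb3 overlapped, between 3.34 and 7.70 in AKP lines and between 3.40 and 7.24 in AP lines. Agrn, the substrate of neurotrypsin in neurons, was well above the floor in all 15 lines, at 9.81 ± 1.41 in AKP lines (SD, n = 12) and 10.85 ± 2.27 in AP lines (SD, n = 3). Its difference of -1.05 ± 0.98 (SE) missed the threshold (limma adjusted p = 0.660).

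The genes most like Prss12 over the 12 AKP lines, out of 10725 genes of sufficient brightness, were Mtcl1, a microtubule crosslinking factor, Txnrd3, a thioredoxin reductase, and Tecpr1, an autophagy factor, with Pearson's r of 0.935, 0.934 and 0.931. Over all 15 lines they were Mtcl1 (0.951), the VEGF receptor gene Flt1 (0.916) and the MAPK output gene Phlda1 (0.914). These are the highest values of the ranking and are given as a description.

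St14, the matriptase gene, did not follow the genotype label. It ran from 1.95 through a median of 3.22 to 9.62 among AKP lines, against 2.17, 6.46 and 3.73 in AP 1, AP 2 and AP 3. In 6 AKP lines it lay on the floor, at 2.49 or lower, and in the others it lay at 3.95 in AKP 4, 5.92 in AKP 11, 6.44 in AKP 6, 7.62 in AKP 3, 7.64 in AKP 12 and 9.62 in AKP 9. The groups overlapped across the whole AP range, and the mean difference was 0.37 ± 1.69 (SE).

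Spint1, which encodes the matriptase inhibitor HAI-1, split the AKP lines into separate sets. It lay between 8.23 and 10.17 in AKP 3, 4, 6, 9, 11 and 12 and between 2.52 and 3.87 in AKP 1, 2, 5, 7, 8 and 10, with no line between. AP 1, AP 2 and AP 3 lay at 2.47, 10.39 and 6.25. The gap between the AKP sets took up 0.571 of the gene's range. The genotype means were 6.11 ± 3.22 in AKP lines (SD, n = 12) and 6.37 ± 3.96 in AP lines (SD, n = 3), so the spread inside each group far exceeded the difference of -0.26 ± 2.08 (SE).

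The 6 AKP lines with high Spint1 were the same 6 in which St14 was above the floor, and also the 6 with the highest Tmprss2. Across all 15 lines St14 was at or above 3 in 8, 6 AKP and 2 AP, and in these Spint1 was never below 6.25, while in the other 7 lines Spint1 never exceeded 3.87. Thus no line showed the protease transcript above the floor without that of its inhibitor.

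**Figure D2:**
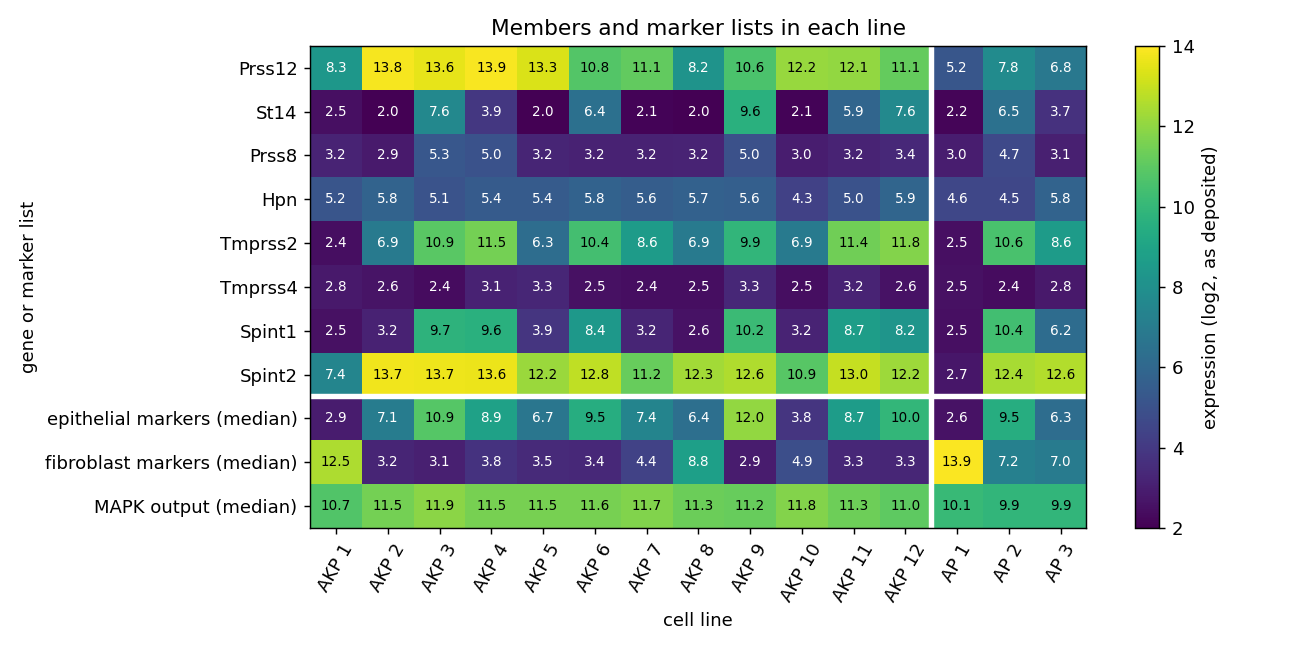
Log2 expression (colour and printed value) of the 8 members and the median level of 3 marker lists (rows) in each AKP line and then each AP line (columns). The lines AKP 3, 4, 6, 9, 11 and 12 hold the 6 highest AKP values of each of Spint1, St14 and Tmprss2, although St14 is only 3.95 in AKP 4, and Prss12 is bright in most AKP lines whether or not Spint1 is.

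Tmprss2 encodes a transmembrane protease of glandular epithelium that is regulated by androgens in the prostate. Its brightest probe set ran from 2.45 in AKP 1 through a median of 9.23 to 11.77 in AKP 12, against 2.50, 10.55 and 8.57 in AP 1, AP 2 and AP 3. The 6 lines high in Spint1 lay between 9.88 and 11.77, and AKP 7 followed at 8.58. On that probe set AKP 2, 5, 8 and 10 lay between 6.31 and 6.92, above AKP 1. On another, AKP 2 at 2.38 did not lie above AKP 1 at 2.50. On a further one AKP 2 at 3.93 and AKP 10 at 3.29 did lie above AKP 1 at 2.46, but nearer to it. The groups overlapped, with a mean difference of 1.45 ± 1.92 (SE), which was -0.90 without AP 1. Of the other 3 Tmprss2 probe sets, a pair gave the same 6 AKP lines the highest values, from 8.64 to 10.65 and from 7.77 to 9.93, with differences of 0.67 and 1.26. The last one stayed between 2.38 and 2.73 in every line. The brightest Tmprss2 and Spint2 probe sets are of kinds that the array maker marks as able to match other transcripts too.

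Spint2, which encodes HAI-2, was bright almost everywhere. It lay at 7.45 in AKP 1 and from 10.86 to 13.73 in the other 11 AKP lines, with a group median of 12.45, against 2.70 in AP 1, 12.41 in AP 2 and 12.63 in AP 3. The low lines were thus 1 of each genotype, and both had the lowest median of epithelial markers. Single markers differed: in AKP 1 and AP 1 Cdh1 was lowest of its group (5.54 and 3.70), but Epcam was highest (9.31 and 9.82). Krt18 lay at 10.82 in AKP 1 and 3.62 in AP 1. AKP 10, with the next lowest epithelial median at 3.84, had Spint2 at 10.86. The mean difference of 2.89 ± 1.70 (SE) came from AP 1: without that line it was -0.38. The second probe set had the same lowest lines, with 4.61 in AKP 1 and 2.14 in AP 1, and 9.89 to 12.79 in the others.

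The remaining proteases were dim. Prss8, the prostasin gene, reached 5.28 in AKP 3, 5.02 in AKP 4 and 4.96 in AKP 9 and lay between 2.88 and 3.38 in the other AKP lines, against 2.95, 4.65 and 3.06 in AP 1, AP 2 and AP 3. The lines above 4 were all among those high in Spint1, and the group means differed by 0.08 ± 0.56 (SE). Hpn, the hepsin gene, varied little, between 4.34 and 5.92 in AKP lines and at 4.57, 4.54 and 5.80 in the AP lines, with a difference of 0.44 ± 0.31 (SE). Tmprss4 lay between 2.42 and 3.34 in AKP lines and between 2.39 and 2.84 in AP lines, below 3 in 11 of 15 lines, so its difference of 0.19 ± 0.22 (SE) is one of floor values.

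Over the whole set, 7 of 8 members had the higher mean in AKP, with a median difference of 0.40 against 0.01 for all genes, and 3 differed by at least 1 on the log2 scale, as did 14.8% of all genes. These figures rest on AP 1: without it 3 of 8 members had the higher mean in AKP, with a median difference of -0.30, and St14, Prss8, Tmprss2 and Spint2 turned negative (-0.60, -0.23, -0.90 and -0.38). Because the contrast helped to choose the set, nothing is read from the tally. Apart from Prss12, no member kept its groups apart.

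The spread inside the AKP group, which the genotype contrast did not use, was set against epithelial marker genes. The epithelial list holds Cdh1, keratins, claudins and other genes of simple and intestinal epithelium, and its median ran from 2.90 in AKP 1 and 3.84 in AKP 10 to 12.05 in AKP 9. Not all of its genes followed that order: Epcam was highest in AKP 1 among AKP lines (9.31), and Lgals4 lay at 2.60 in AKP 9. St14 correlated with the list median over the 12 AKP lines, with Pearson's r of 0.845 (permutation adjusted p = 0.00376) and rho of 0.811 (permutation adjusted p = 0.0268), and r was 0.965 without the 2 lines farthest from the median. Tmprss2 did so too, with r of 0.841 and rho of 0.755 (permutation adjusted p = 0.00376 and 0.0454), and r of 0.727 without those 2 lines. Leaving out AKP 1 and AKP 8 instead, after seeing the data, gave Tmprss2 an r of 0.726 that no longer passed (permutation adjusted p = 0.0942). St14 lay below 3 in 6 of the 12 AKP lines, where values have no reliable order. Its rho therefore rests in part on the order of floor values.

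The relation of Spint2 with these markers rested on few lines. Its r of 0.720 (permutation adjusted p = 0.0232) stood beside a rho of 0.559 (permutation adjusted p = 0.190) and an r of 0.252 without the 2 farthest lines. Leaving out AKP 1, AKP 3 or AKP 10 alone ended that call, with r of 0.535, 0.691 and 0.711 (permutation adjusted p = 0.239, 0.0658 and 0.0701). For Spint1 and Prss8, whose values fall into separate sets, no r with the marker lists or other members over all AKP lines is given. Every AKP line with high Spint1 had an epithelial level of at least 8.65, and none of the others exceeded 7.43. The single marker Cdh1, the E-cadherin gene, did not draw the same border: it lay at 12.60 in AKP 2 and 12.19 in AKP 5, where Spint1 lay at 3.15 and 3.87. In the claudin gene Cldn4 these lines lay at 2.15 and 2.03, against at least 8.86 in the lines high in Spint1.

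**Figure D3:**
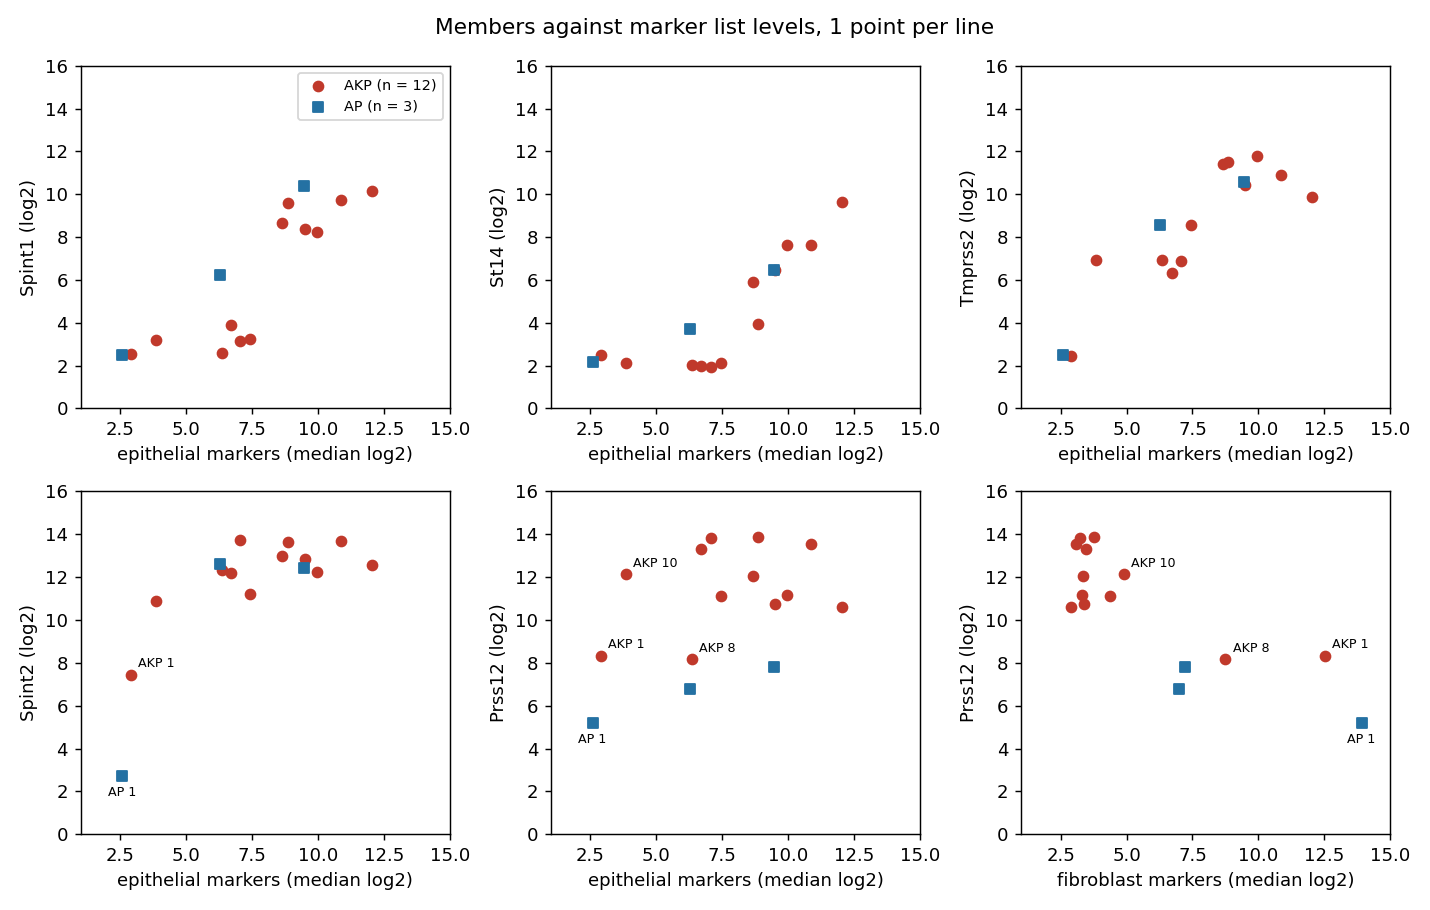
Each point is a line, with AKP lines as red circles and AP lines as blue squares, plotted by a member's log2 expression (y axis) against the median log2 level of the epithelial or fibroblast markers (x axis). AKP lines with an epithelial level of 8.65 or more have at least 8.23 in Spint1 and 3.95 in St14, and the other AKP lines have at most 3.87 and 2.49, whereas AP 3 reaches 6.25 in Spint1 at an epithelial level of 6.28. Prss12 is lowest in the AP lines and in AKP 1 and AKP 8, which have the highest median fibroblast marker levels among AKP lines.

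Fibroblast markers ran the other way. Tmprss2 had an r of -0.762 with them and Spint2 one of -0.810 (permutation adjusted p = 0.0232 and 0.0459), but their rho did not pass (-0.455 and -0.671, permutation adjusted p = 0.310 and 0.0987). Without AKP 1 the r values were -0.464 and -0.334 (permutation adjusted p = 0.262 and 0.518). Tmprss2 also lost the call without AKP 3 (r of -0.753, permutation adjusted p = 0.0522), and Spint2 kept it only without AKP 7, AKP 8 or AKP 10. Of the 24 relations between members and lists, 18 concerned members without separate sets, and 6 of these passed by Pearson's r and 2 by Spearman's rho, namely St14 and Tmprss2 with epithelial markers.

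Pairs of members were compared in the same way. Of 28 pairs, 15 involved neither Spint1 nor Prss8, and 0 of these passed by permutation after adjustment, with 3 at an unadjusted p under 0.05. Tmprss2 and Spint2 had an r of 0.745 and a rho of 0.434 (permutation adjusted p = 0.0608 and 0.503), and r was 0.398 without the 2 lines farthest from the median. St14 and Tmprss2 had an r of 0.693 and a rho of 0.720 (permutation adjusted p = 0.0663 and 0.0991), and r was 0.715 without the 2 lines farthest from the median. Prss12 and Spint2 had an r of 0.638 and a rho of 0.531 (permutation adjusted p = 0.0960 and 0.343). Prss12 and St14 had an r of 0.0379. Inside either Spint1 set, with 6 lines each, Spint1 had no relation with another member that passed an exact permutation test (14 relations, adjusted p of at least 0.552).

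Likeness over all genes pointed to the same lines. The genes closest to Spint1 over the 12 AKP lines were Cdcp1, a membrane protein that matriptase can cut, Cldn4 and Igsf5, with Pearson's r of 0.986, 0.981 and 0.976. Cldn4 is also in the epithelial list. Cdcp1 lay between 7.66 and 9.35 in the lines high in Spint1 and between 1.50 and 1.88 in the other AKP lines, and at 1.56, 6.45 and 1.62 in AP 1, AP 2 and AP 3. For St14 they were Ap1m2, a subunit of the epithelial sorting adaptor, Rab25, an epithelial trafficking GTPase, and Shtn1 (0.993, 0.987 and 0.974), of which Rab25 is in the epithelial list. The genes closest to Tmprss2 were Ripk4, Spryd4 and Lsr (0.926, 0.921 and 0.921), to Spint2 Fgd4, Chmp4c and Rell1 (0.949, 0.934 and 0.925), and to Prss8 Mmp7, Arfgef3 and Dennd2d (0.955, 0.851 and 0.831). For Spint1 and Prss8 these r values mainly restate the separate sets.

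The rest of the protease and inhibitor system was tested between the genotypes as 5 lists with 77 measured genes. Limma called 1 of them, or 1.3%, against 1.9% of all genes, and 12 had an unadjusted p under 0.05. That gene was Plaur, the urokinase receptor, which gathers protease activity on the cell surface. Its increase in AKP lines was 2.42 ± 0.41 log2 units (SE; adjusted p = 0.0102 by limma), with means of 11.82 ± 0.49 in AKP lines (SD, n = 12) and 9.40 ± 1.22 in AP lines (SD, n = 3), with no overlap between the groups. The authors' deposited table lists it too. It was the only call among 15 measured substrates, receptors and partners, whose median difference was 0.10, with 3 at an unadjusted p under 0.05.

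Among 17 other membrane-anchored serine proteases limma called 0 (1 at an unadjusted p under 0.05), the median difference was 0.03, and only 3 had a mean at or above 4.17, the median of all probe sets. Among 17 secreted trypsin-like proteases it called 0 (2 unadjusted), with a median of -0.02. Among 18 other inhibitors it called 0 (5 unadjusted), with a median of -0.11. Serpinb9, an inhibitor of granzyme B, lay at 8.35 ± 2.06 in AKP lines (SD, n = 12) and 12.47 ± 1.11 in AP lines (SD, n = 3). It missed the threshold here (limma adjusted p = 0.104), although all 12 AKP lines lay below every AP line. Over all genes 2.13% kept the groups apart in either direction. The authors' deposited table does list Serpinb9, with means of 5.55 in AKP and 10.84 in AP. Both means differ from those given here, so that entry rests on other values, and its call cannot be set against this result. Which probe set and lines it used was not settled. Among 10 regulators of epithelial transcription and splicing limma called 0 (1 unadjusted), with a median of 0.07. Grhl2, a grainyhead-like factor, lay between 6.14 and 7.10 in AKP lines and between 6.17 and 7.15 in AP lines. Other grainyhead-like factors in the list spread more. Grhl1 lay between 4.97 and 8.31 in AKP lines and between 5.94 and 6.40 in AP lines. Grhl3 lay between 1.87 and 8.45 in AKP lines and between 1.92 and 6.78 in AP lines.

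**Figure D4:**
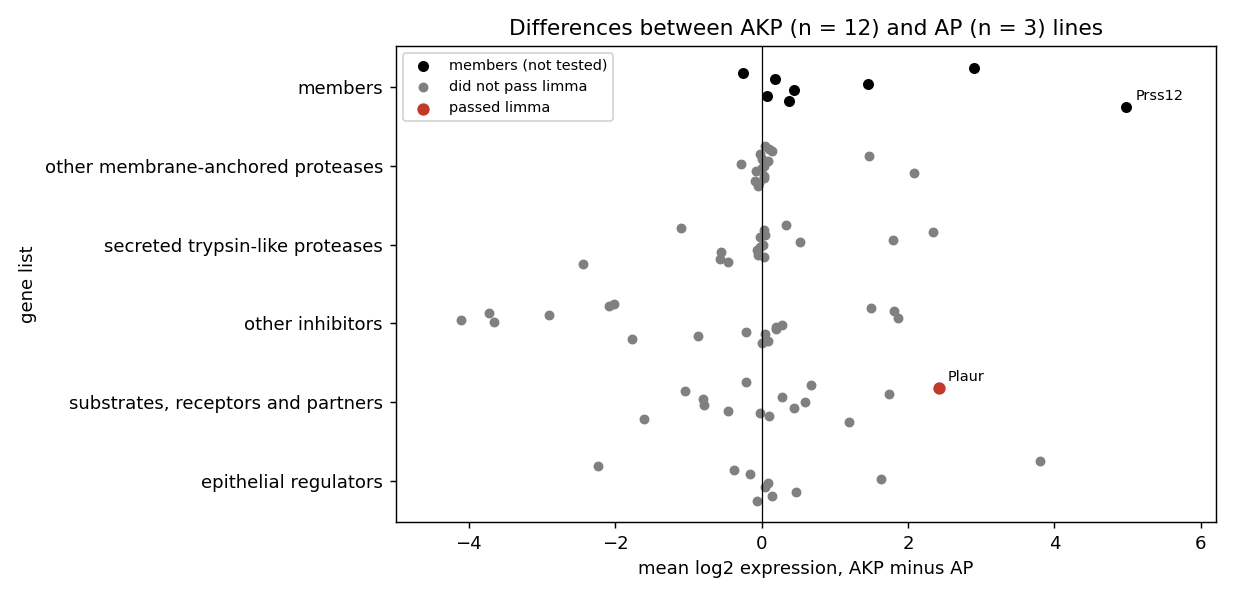
Differences of mean log2 expression, AKP minus AP (x axis), for the members (black, not tested) and for each gene of the 5 wider lists (rows; grey did not pass limma, red passed). Prss12 lies farthest to the right at 4.98, and Plaur is the only gene of the wider lists that passed.

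Hepatocyte growth factor signalling links these proteases to a receptor, since matriptase, hepsin and the activator encoded by Hgfac cut pro-HGF and Spint1 and Spint2 block that cut. Hgf itself was low, between 2.94 and 4.25 in AKP lines and at 7.95 in AP 1 but 3.46 and 3.47 in AP 2 and AP 3. Met, its receptor, lay between 8.47 and 11.88 in AKP lines and between 9.31 and 11.58 in AP lines. Hgfac ran from 1.55 to 10.72 in AKP lines and lay at 2.50, 7.07 and 1.98 in the AP lines. None of these passed limma between the genotypes (adjusted p = 0.253, 0.959 and 0.598).

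The sex label gave a comparison that the choice of members did not use. Limma, with genotype as a covariate, called 0 of the 8 members and 0% of all genes between 10 lines labelled female and 5 labelled male; 574 genes had an unadjusted p under 0.05, among them 1 member. That member was Hpn, at 5.55 ± 0.33 in female-labelled lines (SD, n = 10) and 4.86 ± 0.53 in male-labelled lines (SD, n = 5), a difference of 0.64 ± 0.23 (SE; limma adjusted p = 0.9999). In 4 of the 15 lines Xist or the Y-linked gene Eif2s3y was not at the level its label calls for. AP 3 and AKP 11, labelled female, had Eif2s3y at 8.47 and 12.71. AKP 2, labelled female, and AKP 5, labelled male, were low in both genes. They had Xist at 2.97 and 2.70 and Eif2s3y at 3.08 and 3.24, which does not settle their sex. Without these 4 lines 0 members passed and 7 genes did.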

How the data were processed

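Total RNA of 15 lines was hybridised to arrays, per the labels' protocols. The authors deposited log2 expression values per probe set; which software and background correction made them is not stated. The authors' deposited table of their AKP against AP comparison holds p-values, t scores, mean log2 values and, as ratio and fold change, the linear size of each difference, as its headers name them.

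Of 45101 probe sets, 64 controls were left out. The platform's table gave 34945 a single gene, 932 several and 9160 none. Each of 18193 genes was represented by its probe set with the highest mean. Limma 3.58.1 in R 4.3.3 (lmFit, eBayes, two-sided) was fitted over all genes with Benjamini-Hochberg adjustment at 0.05. With 3 AP arrays, precision is limited by their number. Correlations used 100000 two-sided permutations, or all where 6 lines entered, in Python 3.11.15. A gene was taken to fall into 2 sets where a gap of at least 0.4 of its range had 3 or more lines on each side, a rule chosen after seeing the data. On simulated data for the 18193 genes of the AKP against AP comparison the fit recovered 36%, 66%, 88% and 92% of genes changed by 1, 2, 3 and 4 on the log2 scale. The changed genes were drawn from all genes, floor genes of little spread included, with normal values. These shares therefore do not give the recovery for genes that spread as widely as St14, Tmprss2, Spint1 and Spint2.

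The members and lists were chosen with earlier results of these data known. Genes named are the members, the 3 most like each member that ranges over at least 2 log2 in AKP lines, called list genes and Agrn; other list genes were chosen after their values were seen. Alternatives covered scaling, probe set rule, dim genes, variance model, array weights, sex, a replicate block and leaving out lines. The replicate numbers were not taken as pairs in the main fit. Deviations of same-numbered lines correlated at 0.460, -0.0357 and -0.0593, and only the lines numbered 1 correlated best with each other.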

Additional observations from a re-analysis of the deposited data

Results flagged for a closer look

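Within the labelled sexes, the 8 members were checked for a line standing far from the others of its sex label (16 checks), and 3 values in the lines AKP 1 and AP 1 stood out, where chance gives about 1 in 20 for a single check. Tmprss2 in AKP 1 lay at 2.45 among the 10 female-labelled lines, whose next value was 6.89. Spint2 in AKP 1 lay at 7.45 among the same lines, whose next value was 11.20. Spint2 in AP 1 lay at 2.70 among the 5 male-labelled lines, whose next value was 10.86. Both lines are those with the lowest epithelial marker level and the highest fibroblast marker level of the series, and the part of these markers in the values was not tested.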

How the results depend on the processing

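The difference of Prss12 stayed between 4.28 (without AP 1) and 5.58 (without AP 2) when 1 line was left out and between 4.57 and 5.64 in the other settings. Leaving out 1 line moved the difference to between -0.60 and 1.54 for St14, -0.23 and 0.63 for Prss8, 0.22 and 0.85 for Hpn, -0.90 and 3.13 for Tmprss2, 0.09 and 0.31 for Tmprss4, -2.21 and 1.75 for Spint1 and -0.38 and 4.58 for Spint2; without AP 1 and AKP 1 together, chosen after seeing the data, Spint2 differed by 0.0502. No member's difference turned its sign with arrays centred on their medians, which moved the median of all genes to 0.12, or with quantile normalization. Other settings did turn signs: St14 was -0.35 with sex as a covariate and -0.10 with the replicate block, Tmprss2 was -0.45 with that block, Spint1 was 0.46 without AKP 1 and AKP 8, and without AP 1 and AKP 1 St14 was -0.42, Prss8 -0.18 and Tmprss2 -0.34. In the wider lists 1 gene was called higher in every setting except the replicate block, where 0 were, as over all genes. In the data, lines of number 1 correlated best with each other and those of the other numbers did not. The count called lower was 0 as reported, 1 with the mean of all probe sets (Serpinb9), and from 0 to 2 on omitting a line: 2 when AP 2 was left out (Epcam and Tmprss15) and 1 when AKP 2 was (Serpinb9). The 345 calls over all genes were 153 with array weights, 177 to 584 leaving out 1 line (lowest without AP 3, highest without AP 2) and 728 without AKP 1 and AKP 8. Pairs of members passing numbered 3 over all 15 lines, 1 with the mean of all probe sets and 0 to 1 leaving out 1 line (1 without AKP 2, 4, 8 or 12). Relations with lists numbered 2 to 6 leaving out 1 line, the 2 without AKP 1 or AKP 3, and 1 without AKP 1 and AKP 8, which was St14 with epithelial markers (r of 0.889). The causes of these moves were not tested. Members called by sex label were 0 in every setting. Depth does not apply to arrays; values near 3 have no reliable order.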

Other observations

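Several other protease genes spread across the AKP lines as widely as the members. Prss22, a tryptase-like protease of epithelial surfaces, ran from 5.05 to 10.51 in AKP lines, against 5.46, 7.72 and 6.71 in AP 1, AP 2 and AP 3. Its highest values were in AKP 9, AKP 11, AKP 3, AKP 6 and AKP 12 (10.51, 10.13, 9.89, 9.61 and 9.51), all of them lines high in Spint1. AKP 1, low in Spint1, followed at 8.53, above AKP 4, high in Spint1, at 7.84. Serpinb5, which encodes maspin, a serpin of epithelial cells, lay between 6.31 and 9.48 in the 5 AKP lines highest in Prss22. It lay at 3.33 or lower in the other AKP lines, AKP 4 included (2.34).

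Other proteases followed different lines. Klk10, a kallikrein-related peptidase, reached 9.60 in AKP 12, 8.37 in AKP 9, 6.16 in AKP 11 and 6.14 in AKP 10 and lay at 4.71 or lower in the other AKP lines, against at most 3.19 in AP lines. Tmprss11e, a transmembrane protease of squamous epithelium, ran from 3.14 in AKP 8 to 9.67 in AKP 11, against 3.18, 5.75 and 3.24 in AP 1, AP 2 and AP 3. None of these 4 genes passed limma between the genotypes (adjusted p of 0.569 for Prss22, 0.969 for Serpinb5, 0.557 for Klk10 and 0.481 for Tmprss11e), and all were chosen after their values were seen.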
